A study of Mus musculus with 12 samples.

Results

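Polyadenylated RNA was sequenced from CD45.2-positive mouse bone marrow cells, collected by flow sorting, to ask how leukemias with a NUTM1 fusion compare with leukemias with an MLL fusion and with normal marrow. The genes described here are those that stood at low levels in normal marrow and at much higher levels in every leukemia of the study, whichever fusion it carried. Counts were scaled by the library total to a common sum of 1000000 (CPM) and averaged over the 3 libraries of a group. A gene was taken when its mean was at least 5 CPM in each of the 3 leukemias, each mean was at least 8 times the mean of normal marrow, and the highest leukemia mean was under 8 times the lowest. Mpo, Elane, Prtn3, Ctsg, Ms4a3, Igf2bp3, Gfi1 and Cdkn1c were left out by name. This gave 67 of the 35976 genes in the table.

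The 4 groups held 3 libraries each, and all came from the C57BL/6 strain and from cells bearing the CD45.2 allele. BN1 cells carried BRD9-NUTM1, a fusion of BRD9, which reads acetylated histones within a remodelling complex, to NUTM1, which recruits histone acetyltransferases and is normally made in developing sperm. MA9 cells carried MLL-AF9 and ME cells carried MLL-ENL, in which the start of MLL, a methyltransferase of histone H3, is joined to a protein of the transcription elongation machinery. WT cells were normal marrow cells with the CD45.2 allele alone. The labels do not say how the fusions were delivered, whether a group came from more than 1 animal, or how old the mice were. Spread and p-values therefore measure only differences between these libraries, which may be technical.

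Normal marrow is a mixture dominated by maturing granulocytes, red cell precursors and B cells, while myeloid leukemias of this kind expand cells arrested near the granulocyte and monocyte progenitor. Fusions of MLL and of NUTM1 act on chromatin and are known for keeping genes transcribed that would be shut during differentiation. The 67 genes held examples of known function in neurons, muscle, thyroid hormone activation, endothelium and germ cells.

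The 250 bases before the annotated start of 4 of the genes are shown because these genes differ in the CpG content described further on. Cacna1b is from the CpG-rich side and Dio2 and Tfec are from the CpG-poor side, though other windows of the set lay beyond them. Sequences are from RefSeq (GRCm38.p6), run 5′ to 3′ toward the start, and have each CpG in capitals. They lie at chr4:102759885-102760134 (plus strand) for Sgip1, chr6:16898442-16898691 (minus strand) for Tfec, chr12:90739039-90739288 (minus strand) for Dio2 and chr2:24763153-24763402 (minus strand) for Cacna1b. The Sgip1 start used here lies well inside the annotated span of the gene, and the Tfec and Cacna1b starts lie slightly inside theirs.
Sgip1: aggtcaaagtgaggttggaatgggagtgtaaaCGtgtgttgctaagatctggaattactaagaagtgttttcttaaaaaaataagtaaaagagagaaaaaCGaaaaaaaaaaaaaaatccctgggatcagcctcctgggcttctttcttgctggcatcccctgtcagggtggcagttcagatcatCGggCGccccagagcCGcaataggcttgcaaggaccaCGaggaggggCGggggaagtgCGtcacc
Tfec: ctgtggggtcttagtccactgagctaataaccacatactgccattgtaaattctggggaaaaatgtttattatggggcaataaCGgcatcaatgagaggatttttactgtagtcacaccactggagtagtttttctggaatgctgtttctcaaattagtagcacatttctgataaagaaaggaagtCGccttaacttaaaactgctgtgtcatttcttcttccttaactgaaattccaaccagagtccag
Dio2: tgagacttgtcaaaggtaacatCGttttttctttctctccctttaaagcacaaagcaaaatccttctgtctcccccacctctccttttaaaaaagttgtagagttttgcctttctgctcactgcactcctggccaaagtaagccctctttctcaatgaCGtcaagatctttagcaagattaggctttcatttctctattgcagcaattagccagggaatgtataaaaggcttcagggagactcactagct
Cacna1b: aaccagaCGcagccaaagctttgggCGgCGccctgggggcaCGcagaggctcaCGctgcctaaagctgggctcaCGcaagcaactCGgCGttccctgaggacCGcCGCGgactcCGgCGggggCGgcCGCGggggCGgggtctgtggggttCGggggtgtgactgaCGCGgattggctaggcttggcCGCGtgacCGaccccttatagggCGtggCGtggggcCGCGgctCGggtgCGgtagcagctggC
The printed stretch held 8 CpGs in Sgip1, 2 in Tfec, 2 in Dio2 and 29 in Cacna1b.

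BN1 libraries had totals of 21942608 to 25732049 counts, MA9 libraries 18953495 to 22112345, ME libraries 18292636 to 21693465 and WT libraries 19170183 to 21432949. ME replicate 3 stood apart from its group through 5 genes that took 1.85% of its counts, chiefly LOC101056014 at 14556 CPM and Lars2 at 3451 CPM, against 465 and 139 CPM in ME replicate 1. None of the 5 belonged to the set, and without that library the rule gave 66 genes, all among the 67. Ptprc, the gene of CD45, lay between 481 and 519 CPM in BN1, 377 and 435 in MA9, 322 and 329 in ME, and 873 and 1019 in WT.

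In all, 9442 genes reached 5 CPM in every leukemia, 79 of these were at least 8 times WT throughout, and 72 also stayed under the ceiling between leukemias. Of the 8 genes left out by name, 5 met the limits (Elane, Prtn3, Ctsg, Igf2bp3 and Cdkn1c) and 3 did not, with lowest folds of 3.99 for Mpo, 5.87 for Gfi1 and 7.99 for Ms4a3. The ceiling removed 7 genes, among them Pmp22, Gpnmb, Clec11a, Cfap57, Penk and C4b, in which the highest leukemia mean was 14.1 to 193 times the lowest. Just inside the 8-fold limit were Rnf217 (8.01), Trim45 (8.14) and Selm (8.37), and just outside it were Gstm1 (7.64), Kcnk12 (7.44) and Pvrig (7.37). Just inside 5 CPM were Gm42060 (5.23), Snhg11 (5.30) and Gm34462 (5.60), and just outside were Glrp1 (4.81), Hsd17b14 (4.75) and Fgf11 (4.64). The ceiling had no gene near it, since the nearest inside were Snhg11 (6.44), Fbp1 (6.30) and Rhoj (6.22) and the nearest outside were Pmp22 (14.1), Gpnmb (14.2) and Clec11a (15.5).

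**Figure D1:**
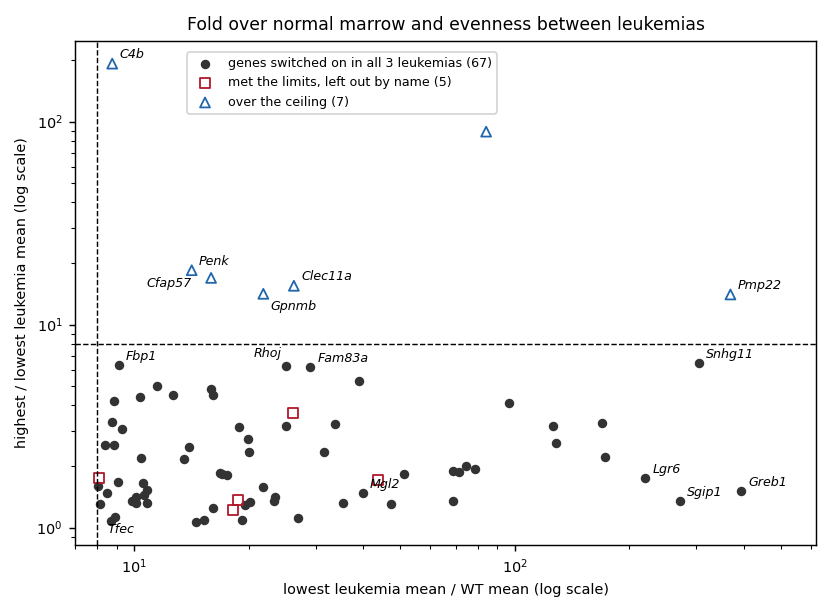
Each point is 1 gene, placed by its lowest leukemia mean over the WT mean (x axis, log scale) and by its highest over its lowest leukemia mean (y axis, log scale). Dashed lines are the limits of 8 on both axes, filled circles are the 67 genes, squares the 5 genes that met the limits but were left out by name, and triangles the 7 genes over the ceiling. Greb1 lies farthest to the right at 394, and no gene lies between ratios of 6.44 and 14.1 on the y axis.

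By annotation, 54 of the 67 genes were protein-coding, 12 were long noncoding RNAs and LOC102635169 had no match. Long noncoding RNAs made up 17.9% of the set and 1.36% of the 9442 genes that reached 5 CPM in every leukemia. The comparison of each leukemia with WT defined the set, so its values are given here as a description, without a test.

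Most of the genes were close to silent in WT. In 47 the WT mean was under 1 CPM, in 7 it was at least 4 CPM, and Nrg2 and Tfec were at 10.1 and 16.3 CPM, so the name of the set fits these last genes less well. The lowest of the 3 folds over WT ran from 8.01 to 394 with a median of 18.8. It reached 100 in 8 genes, 50 in 15 and 20 in 30, and it was under 10 in 13. The lowest leukemia library exceeded the highest WT library for all 67 genes, and did so by at least 8 times for 55. The rule chose on these same levels, so such separation was close to fixed in advance. The share over all genes was not counted, and nothing is read from it. For comparison, edgeR called 38.4% of all 15334 tested genes higher in BN1 than in WT, 39.3% in MA9 and 39% in ME, but nothing is read from this contrast, since the rule used it.

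**Figure D2:**
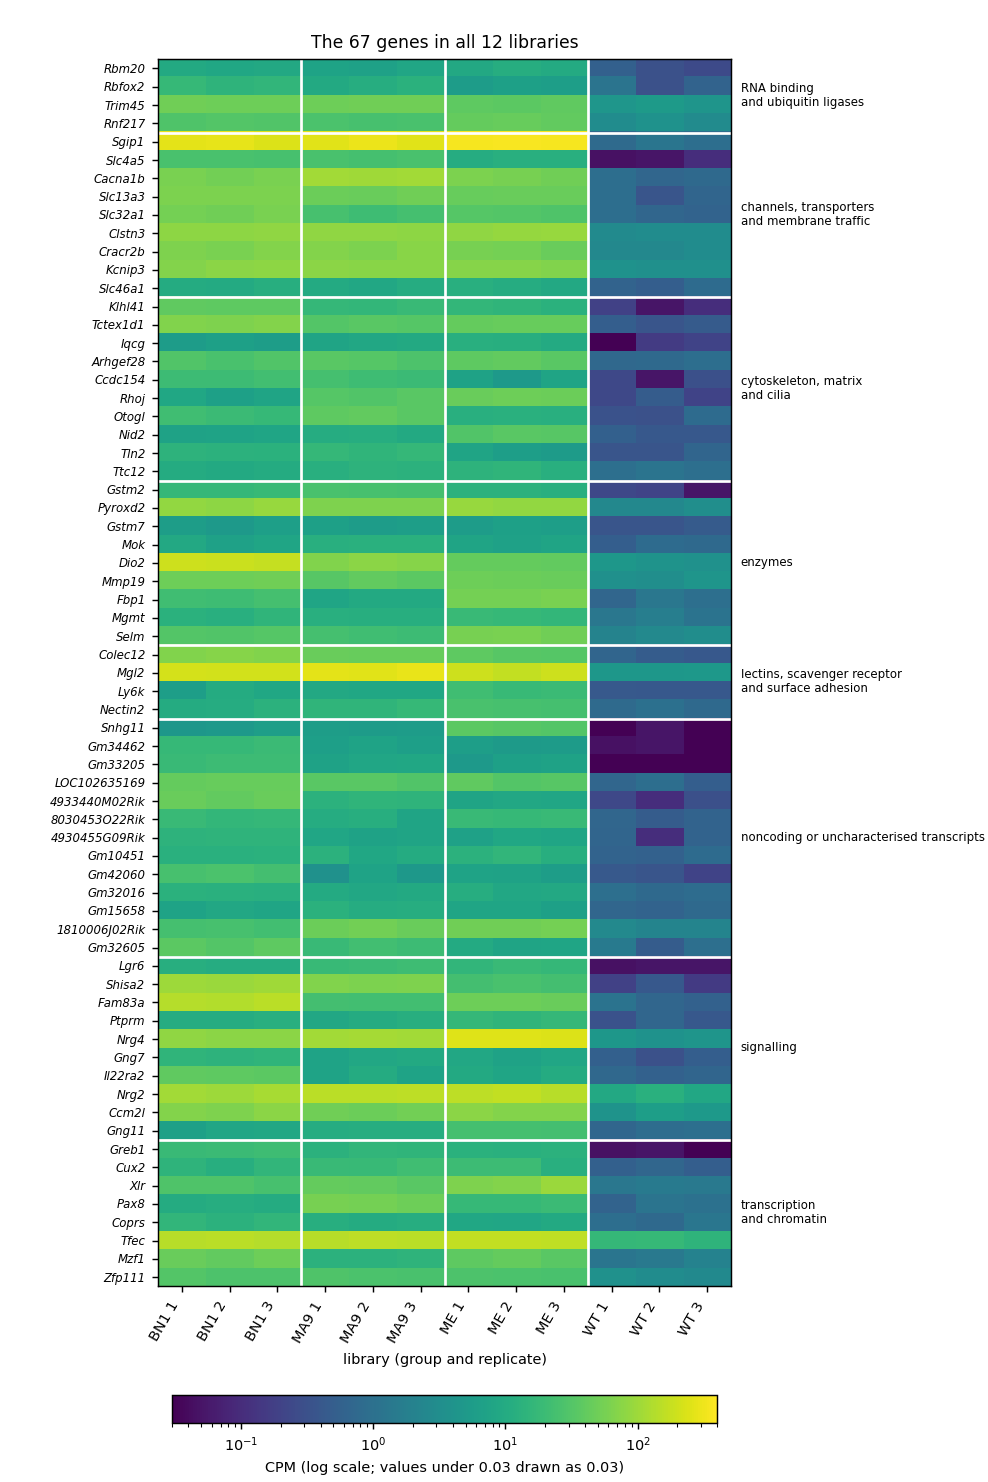
Rows are the 67 genes, grouped by known role, and columns are the 12 libraries with the 3 leukemias left of WT. Colour is CPM on a log scale. The WT columns are darker than the leukemia columns in every row, with Tfec (16.3 CPM) and Nrg2 (10.1 CPM) the brightest there. Sgip1 is the brightest row in the leukemias.

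The genes were sorted by known role after their values were seen, so the groups serve only to order the description. The channel, transporter and membrane traffic group was the most even between leukemias by its median. It held 9 genes with a median lowest fold of 31.6 and a median ratio of 1.35 between the highest and lowest leukemia.

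Sgip1 (chromosome 4, 102741302 to 102977426), an adaptor of clathrin-mediated endocytosis best known from brain, had the highest CPM of the set. Its levels were 271, 280 and 239 CPM in BN1, 262, 302 and 265 in MA9 and 348, 365 and 355 in ME, against 0.793, 1.20 and 0.920 in WT. Every leukemia library was thus far above every WT library, by 271, 285 and 367 times on the means of BN1, MA9 and ME. Per kilobase of exon, however, Mgl2 was the most abundant of the 60 genes with a known exon length, at 107 RPKM (CPM divided by exon length in kilobases) over the leukemias, ahead of Nrg2 (44.0), Sgip1 (29.5) and Tfec (27.4).

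Cacna1b (chromosome 2, 24603860 to 24763200), the pore subunit of the N-type calcium channel of nerve terminals, was at 58.6, 53.5 and 59.3 CPM in BN1, 109, 104 and 105 in MA9 and 61.5, 57.0 and 50.8 in ME, against 0.933, 0.678 and 0.767 in WT. BN1 and ME overlapped, and MA9 stood above both. Kcnip3, a calcium-binding modulator of potassium channels that also represses transcription, was at 74.8 ± 6.01, 74.8 ± 2.07 and 68.7 ± 2.63 CPM in BN1, MA9 and ME, against 3.59 ± 0.132 in WT (SD, n = 3 throughout). Clstn3, a synaptic adhesion protein, was at 80.5 ± 1.13, 81.1 ± 1.34 and 89.3 ± 4.78 CPM, against 3.0 ± 0.131 in WT, and was lower in BN1 and in MA9 than in ME (adjusted p = 0.0115 and 0.00476 in edgeR).

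Among the solute carriers, Slc4a5, a sodium bicarbonate cotransporter, had 4 counts in all of WT. It was at 25.9 ± 0.271 CPM in BN1, 25.7 ± 1.19 in MA9 and 11.6 ± 0.763 in ME, which was 386, 383 and 173 times WT. Slc32a1, which loads the transmitter GABA into synaptic vesicles, was at 55.4 ± 4.64, 23.4 ± 2.10 and 31.0 ± 1.83 CPM, against 0.742 ± 0.169 in WT. Slc13a3, a dicarboxylate transporter of kidney, was between 44.0 and 61.5 CPM in all leukemia libraries and at most 0.933 CPM in WT. Slc46a1, the proton-coupled folate transporter, was low but even, at 9.88 to 10.8 CPM on the means, against 0.649 in WT. Cracr2b, a regulator of store-operated calcium entry, completed the group with folds of 23.8, 25.2 and 19.5.

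Signalling genes numbered 10. They included ligands, receptors and parts of the machinery behind them. The neuregulins Nrg4 and Nrg2 are ligands of ErbB receptor tyrosine kinases. Nrg4 (chromosome 9, 55220222 to 55283654) was at 83.3, 77.8 and 76.2 CPM in BN1, 107, 112 and 108 in MA9 and 251, 247 and 242 in ME, against 4.62, 3.81 and 4.19 in WT. The 4 groups did not overlap and ME stood highest. Nrg2 (chromosome 18, 36014581 to 36197532) was at 106, 101 and 116 CPM in BN1, 147, 149 and 156 in MA9 and 157, 168 and 143 in ME, against 9.10, 12.3 and 9.0 in WT, with MA9 and ME overlapping.

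Lgr6, a receptor for R-spondins that strengthens Wnt signalling and marks some epithelial stem cells, had 3 counts over the WT libraries. Its means were 11 ± 0.534 CPM in BN1, 19.3 ± 1.46 in MA9 and 17.1 ± 1.5 in ME. The ratio to WT was 220 in BN1 with an exact counting interval (95%) of 75.3 to 1073. Such intervals cover counting error only. Shisa2, an endoplasmic reticulum protein that restrains Wnt and FGF receptors, ran from BN1 downward, at 99.9 ± 2.48, 64.1 ± 2.65 and 24.4 ± 1.6 CPM, against 0.252 ± 0.144 in WT.

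Fam83a, a scaffold protein reported in growth factor signalling of epithelial tumours, was at 137, 136 and 151 CPM in BN1, 23.5, 22.2 and 22.8 in MA9 and 48.9, 49.5 and 46.2 in ME, against 1.12, 0.678 and 0.562 in WT. It was the most uneven of the signalling genes, with 6.18 times more in BN1 than in MA9. Il22ra2, a soluble decoy receptor for interleukin 22, was at 37.9 ± 1.81 CPM in BN1, 8.38 ± 1.71 in MA9 and 9.36 ± 1.19 in ME, against 0.662 ± 0.0864 in WT. Ccm2l, known from endothelial development, was at 69.7 ± 5.59, 50.4 ± 2.06 and 70.9 ± 5.12 CPM, against 4.98 ± 1.07 in WT. The G protein gamma subunits Gng7 and Gng11 leaned opposite ways, Gng7 being highest in BN1 (14.7 CPM, against 8.64 in MA9 and 8.10 in ME) and Gng11 in ME (24.1 CPM, after 7.90 in BN1 and 11 in MA9). Ptprm, a receptor tyrosine phosphatase of cell contacts, was 21.8 to 34.6 times WT.

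**Figure D3:**
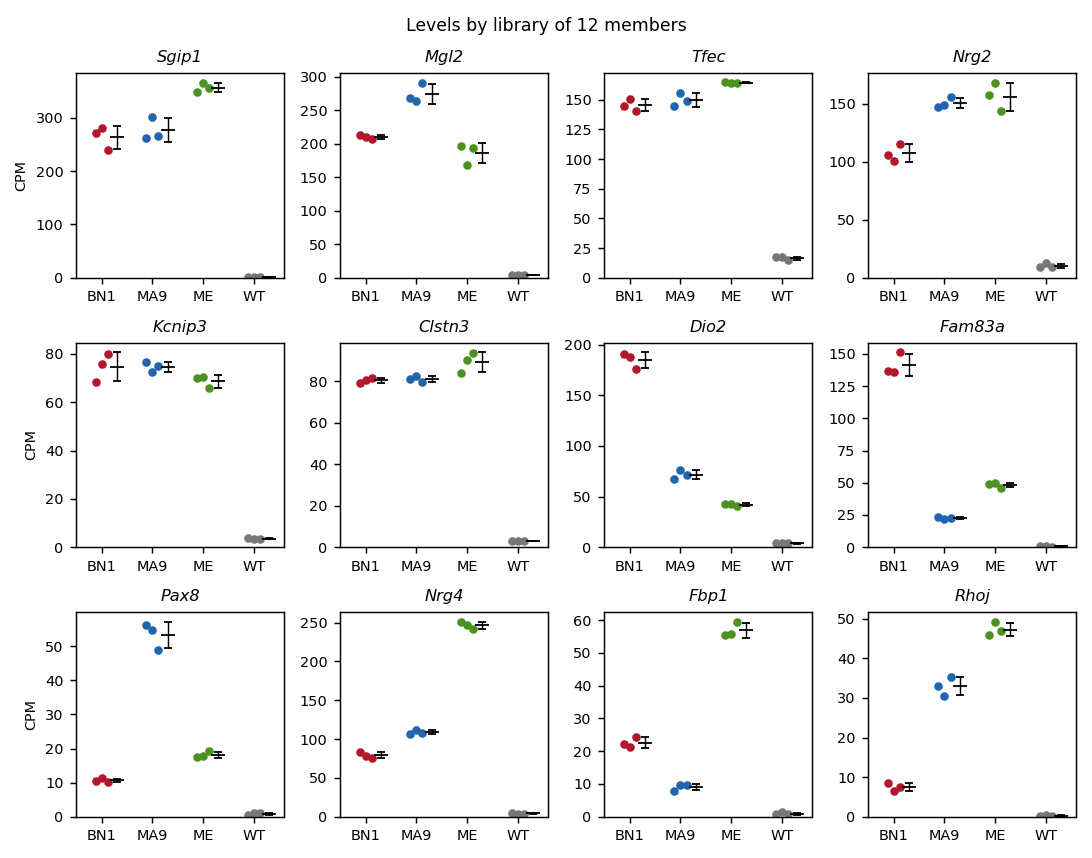
CPM by library for 12 of the genes, each panel with its own linear axis from 0. Dots are libraries and horizontal marks with bars are the mean and SD of 3 libraries. Kcnip3 lies between 68.7 and 74.8 CPM on the means of BN1, MA9 and ME, Clstn3 is highest in ME, Dio2 and Fam83a are highest in BN1, Pax8 in MA9, and Nrg4, Fbp1 and Rhoj in ME.

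The 8 genes of transcription and chromatin had a median lowest fold of 10.3. Tfec (chromosome 6, 16830927 to 16898464), a basic helix-loop-helix factor of the MiT-TFE family found in myeloid cells, was at 145, 151 and 141 CPM in BN1, 145, 156 and 149 in MA9 and 165, 164 and 164 in ME, against 17.1, 17.3 and 14.7 in WT. It had the highest WT level of the 67 genes. Greb1 (chromosome 12, 16670615 to 16801394), a cofactor of the estrogen receptor, was the opposite, with 2 counts over WT. Its means were 19.6 ± 0.886 CPM in BN1, 14.9 ± 1.21 in MA9 and 13 ± 0.642 in ME. The ratio of 394 in ME was the largest lowest fold of the set (counting interval 107 to 3219).

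Pax8 (chromosome 2, 24420551 to 24475599), a factor of thyroid and kidney development, was at 10.4, 11.3 and 10.3 CPM in BN1, 56.1, 54.7 and 48.8 in MA9 and 17.4, 17.7 and 19.2 in ME, against 0.607, 1.15 and 1.02 in WT, without overlap of any groups. The myeloid zinc finger gene Mzf1 was instead lowest in MA9, at 45.2 ± 3.68 CPM in BN1, 13.6 ± 0.578 in MA9 and 38.0 ± 3.40 in ME, against 1.56 ± 0.435 in WT. Zfp111, a zinc finger gene, was the flattest of this group at 29.2 ± 1.68, 27.8 ± 1.5 and 27.2 ± 0.916 CPM, against 3.12 ± 0.473 in WT. Xlr, an X-linked lymphocyte-regulated gene, and Cux2, a homeobox factor of cortical neurons, both had 1 library apart, ME replicate 3, at 94.9 CPM against 64 and 68.9 in the other ME libraries for Xlr, and at 12 CPM against 20.5 in ME replicate 1 for Cux2. Coprs, a partner of the arginine methyltransferase PRMT5, was at 8.90 to 14.9 CPM on the leukemia means, against 0.981 in WT.

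Enzymes made up 9 genes, with a median lowest fold of 10.4. Dio2 (chromosome 12, 90724552 to 90739038), which converts thyroxine to active thyroid hormone, was at 190, 188 and 176 CPM in BN1, 67.4, 76.0 and 71.4 in MA9 and 42.6, 42.8 and 40.7 in ME, against 4.53, 3.96 and 3.68 in WT. No groups overlapped. Fbp1, a gluconeogenic enzyme, was at 22.6 ± 1.64 CPM in BN1, 9.03 ± 0.967 in MA9 and 56.9 ± 2.21 in ME, against 0.992 ± 0.303 in WT. Pyroxd2, a predicted oxidoreductase, was at 85.6 ± 6.02, 64 ± 0.655 and 86.8 ± 3.43 CPM, against 2.75 ± 0.410 in WT.

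The mu-class glutathione transferases Gstm2 and Gstm7 conjugate glutathione to electrophiles. Gstm2 was at 17.1 ± 0.733, 25.2 ± 0.937 and 12.9 ± 0.996 CPM in BN1, MA9 and ME, against 0.164 ± 0.0988 in WT. Gstm7 was the most even gene of the set, at 5.80 ± 0.675, 6.21 ± 0.529 and 6.16 ± 0.501 CPM, against 0.400 ± 0.0527 in WT, and its highest leukemia mean was 1.07 times its lowest. Both belong to a family of close paralogues, and reads shared between them may have been split or dropped, so their levels are uncertain. The other enzymes were Mmp19, a matrix metalloproteinase, Mgmt, which repairs alkylated guanine, Mok, a protein kinase, and Selm, a selenoprotein of the endoplasmic reticulum, with lowest folds of 10.1, 8.49, 10.5 and 8.37.

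Of 4 lectin, scavenger and adhesion genes, Mgl2 (chromosome 11, 70130125 to 70137542) stood out. It encodes a galactose-binding lectin of macrophages and dendritic cells and was at 213, 209 and 207 CPM in BN1, 269, 264 and 291 in MA9 and 197, 169 and 193 in ME, against 4.62, 4.64 and 4.76 in WT. The 3 leukemias did not overlap, and MA9 was highest. Colec12, a scavenger receptor with a lectin domain, was 132, 86.6 and 68.9 times WT in BN1, MA9 and ME. Nectin2, an adhesion receptor, and Ly6k, a surface protein of germ cells, were highest in ME, at 25.1 ± 0.660 and 19.5 ± 1.87 CPM, against 0.850 ± 0.123 and 0.415 ± 0.00568 in WT.

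The 10 genes of cytoskeleton, matrix and cilia had a median lowest fold of 29.4. Klhl41, a kelch protein of skeletal muscle, was at 38.2 ± 0.824 CPM in BN1, 17.3 ± 1.31 in MA9 and 14.6 ± 1.62 in ME, against 0.114 ± 0.0680 in WT, where it had 7 counts. Rhoj, a small GTPase of endothelial cells, was at 8.61, 6.56 and 7.62 CPM in BN1, 33.1, 30.6 and 35.3 in MA9 and 45.8, 49.2 and 46.8 in ME, against 0.233, 0.469 and 0.205 in WT. The 4 groups were separate, with BN1 lowest among the leukemias. Nid2, a basement membrane protein, was likewise lowest in BN1 and highest in ME, at 7.43 ± 0.380, 10.5 ± 0.751 and 33.5 ± 2.66 CPM, against 0.462 ± 0.0848 in WT.

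Otogl, a glycoprotein of the membranes of the inner ear, was highest in MA9, at 38.4 ± 2.94 CPM against 19.5 ± 2.27 in BN1, 12.2 ± 0.289 in ME and 0.486 ± 0.288 in WT. Genes of cilia and dynein included Tctex1d1, a dynein light chain relative, at 66.8 ± 2.19, 33.3 ± 2.40 and 43.4 ± 0.443 CPM, against 0.446 ± 0.075 in WT, and Ttc12 and Iqcg, whose lowest folds were 9.86 and 51.0. Ccdc154 was at 20.9 ± 1.44, 21.6 ± 2.24 and 6.66 ± 1.35 CPM, against 0.197 ± 0.131 in WT. The guanine nucleotide exchange factor Arhgef28 and the talin Tln2, which links integrins to actin, had lowest folds of 35.3 and 14.

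RNA-binding proteins and ubiquitin ligases were represented by Rbm20 and Rbfox2, regulators of splicing in muscle and neurons, and by Trim45 and Rnf217. Their lowest folds were 20.1, 8.83, 8.14 and 8.01, so 3 of these 4 genes lay near the limit of the rule.

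Among the 13 noncoding or uncharacterised transcripts, 8 were highest in BN1, 1 in MA9 and 4 in ME. Snhg11 (chromosome 2, 158375713 to 158386474), a noncoding host of small nucleolar RNAs, had 1 count in all of WT and was at 4.6, 5.06 and 6.26 CPM in BN1, 5.96, 5.52 and 5.76 in MA9 and 37.2, 34.3 and 31.0 in ME. ME stood apart from BN1 and MA9, which overlapped. The ratio to WT was 305 in BN1, with a counting interval of 57.3 to 12712. Gm33205 had no count in WT and was at 19.9 ± 0.777, 7.98 ± 0.789 and 6.28 ± 0.970 CPM, at least 126-fold higher in every leukemia when WT is set to a floor of 3 counts over the group. Gm34462 had 2 counts in WT and was at 18.3 ± 1.24, 6.64 ± 0.593 and 5.60 ± 0.421 CPM, the ratio in ME being 170 (counting interval 46.2 to 1396). LOC102635169 was highest in BN1, at 44.0 ± 0.933, 33.8 ± 2.57 and 35.1 ± 4.32 CPM, against 0.717 ± 0.214 in WT.

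The next question was whether the 67 genes stood at the same level in the 3 leukemias. The rule caps the ratio between leukemia means under 8 but leaves its direction and its size below the cap to the data, so these differences were tested with edgeR's quasi-likelihood test, adjusted by Benjamini-Hochberg over all 15334 genes. All 67 genes passed the filter on low counts. Between BN1 and MA9, 49 of the 67 were called, 30 higher and 19 lower in BN1, where 67.7% of all tested genes were called (32.8% higher, 34.9% lower). Between BN1 and ME, 54 were called, 30 higher and 24 lower in BN1, where 64.7% of all tested genes were called (31.8% higher, 33% lower). Between MA9 and ME, 46 were called, 18 higher and 28 lower in MA9, where 40.6% of all tested genes were called (20.2% higher, 20.4% lower).

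Against the 9442 genes that reached 5 CPM in every leukemia, the shares called were 74.2%, 71.6% and 43.2% in the same order of comparisons, and 73.1%, 80.6% and 68.7% for the 67 genes. The share for BN1 against MA9 was thus near the background, while the other comparisons were above it. Median absolute log2 fold changes were 0.45, 0.64 and 0.49 for the 67 genes and 0.33, 0.31 and 0.15 for the 9442. These genes were less abundant than the 9442, with a median leukemia level of 22.3 against 49 CPM.

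The highest leukemia was BN1 for 26 genes (38.8%), MA9 for 15 (22.4%) and ME for 26 (38.8%), where over the 9442 genes the shares were 39.6%, 38.2% and 22.2%. The highest over the lowest mean had a median of 1.85 in the set, against 1.34 over the 9442 genes. It was under 1.5 in 23 of the 67 genes, under 2 in 37 and at least 4 in 12. With BN1 set against the mean of both MLL leukemias, 48 genes were called, 30 higher and 18 lower in BN1, beside 69% of all tested genes (34.1% higher, 34.9% lower) and 75.8% of the 9442.

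Kcnip3, Slc46a1, Gstm7 and Zfp111 were called in no pair of leukemias, with log2 fold changes between -0.16 ± 0.13 (SE, Slc46a1, MA9 against ME) and 0.18 ± 0.12 (Slc46a1, BN1 against MA9). Their adjusted p in edgeR ran from 0.0964 to 0.943, which does not show that the levels were equal. A further gene, Gm10451, was called in 1 pair, 38 genes in 2 pairs and 24 in all 3.

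Transcripts with Gm and Rik symbols are named after the other genes of each comparison. Of the genes with other symbols, the largest log2 fold changes of BN1 over MA9 were those of Fam83a (2.68 ± 0.07), Il22ra2 (2.22 ± 0.12), Mzf1 (1.78 ± 0.09) and Dio2 (1.41 ± 0.05). Those lower in BN1 than in MA9 were led by Pax8 (-2.28 ± 0.09), Rhoj (-2.07 ± 0.10), Otogl (-0.93 ± 0.10) and Cacna1b (-0.84 ± 0.06). Gm42060 (2.3 ± 0.16), 4933440M02Rik (1.68 ± 0.09) and Gm34462 (1.51 ± 0.12), all higher in BN1, exceeded Dio2, and 1810006J02Rik (-0.99 ± 0.07) was lower in BN1 by more than Otogl. The libraries of the compared groups did not overlap for any of these genes, and edgeR's adjusted p ran from 4.67e-23 for Fam83a to 6.56e-09 for Otogl.

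Against ME, the genes with other symbols that were higher in BN1 were led by Dio2 (2.12 ± 0.06), Shisa2 (2.02 ± 0.07), Il22ra2 (2.01 ± 0.12) and Ccdc154 (1.64 ± 0.14). Those lower in BN1 were led by Snhg11 (-2.69 ± 0.12), Rhoj (-2.64 ± 0.10), Nid2 (-2.18 ± 0.11) and Nrg4 (-1.65 ± 0.05). Among all the genes higher in BN1, the largest change was that of 4933440M02Rik (2.39 ± 0.10). Gm32605 (2.07 ± 0.13), Gm42060 (1.89 ± 0.15), Gm34462 (1.70 ± 0.12) and Gm33205 (1.65 ± 0.13), also higher in BN1, exceeded Ccdc154. Adjusted p in edgeR was at most 6.90e-11 (Gm42060).

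The MLL leukemias also differed from each other. Ccdc154 (1.65 ± 0.14), Otogl (1.6 ± 0.11), Pax8 (1.5 ± 0.09) and Shisa2 (1.33 ± 0.07) were higher in MA9 than in ME. Fbp1 (-2.71 ± 0.10), Snhg11 (-2.63 ± 0.12), Nid2 (-1.73 ± 0.10) and Mzf1 (-1.54 ± 0.09) were lower in MA9, with an adjusted p in edgeR of at most 7.92e-11 (Ccdc154). Il22ra2 (2.11 ± 0.09) and Rhoj (-2.35 ± 0.09) were the genes farthest from the mean of MA9 and ME in BN1, in opposite directions, with adjusted p of 2.28e-17 and 6.69e-19.

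**Figure D4:**
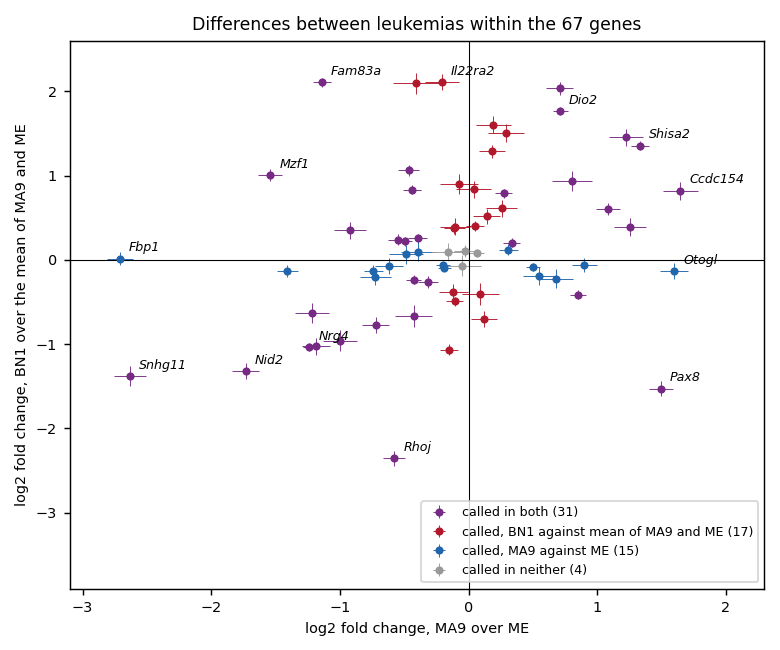
Each point is 1 of the 67 genes, with the log2 fold change of MA9 over ME on the x axis and of BN1 over the mean of MA9 and ME on the y axis. Bars are edgeR standard errors and colours give the calls at an adjusted p under 0.05. Of the genes, 31 are called on both axes, 17 for BN1 against the mean alone, 15 for MA9 against ME alone and 4 on neither, with Rhoj lowest and Snhg11 and Fbp1 farthest left.

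Several of the genes lay beside each other or under transcripts of the opposite strand. Of 66 genes with a position (GRCm38.p6), 8 were on chromosome 2, or 12.1%, against 8.08% of the placed genes among the 9442. Sgip1 and Tctex1d1 were direct neighbours on the same strand of chromosome 4, 1276 bp apart. Sgip1 was highest in ME and Tctex1d1 in BN1, so the neighbours did not share an order of leukemias. Gstm7 and Gstm2 lay 49824 bp apart on chromosome 3, Pax8 and Cacna1b 128260 bp apart on chromosome 2, both being highest in MA9, and Snhg11 and Slc32a1 220785 bp apart on chromosome 2. Ralgapb, which lies between these last genes, was at 121, 99.1 and 98.2 CPM in BN1, MA9 and ME, against 93.7 in WT. It was called higher than in WT in BN1 (adjusted p = 4.70e-05 in edgeR) and not in MA9 (0.0862) or ME (0.384). Arhgap40, the other tested gene between them, was low throughout, at 0.560, 0.159 and 0.654 CPM, against 0.0518 in WT, and was called higher in BN1 (log2 fold change 3.22, adjusted p = 0.000268) and ME (3.45, 0.000110) but not in MA9 (1.45, 0.164).

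Another gene of the table overlapped 26 of the placed genes, and a tested gene overlapped 16, always on the opposite strand. The libraries were stranded, yet no source used here says whether counting was, so reads of such pairs may have been shared. Gm12709, on the opposite strand of Sgip1 and Tctex1d1, was at 9.10, 4.30 and 5.76 CPM in BN1, MA9 and ME, against 0.0329 in WT. Gm26512, opposite Dio2, was at 2.99, 5.99 and 5.30 CPM, against 0.330 in WT, an order of leukemias unlike that of Dio2. Muc13, a mucin gene opposite Gm15658, was at 134, 264 and 74.9 CPM, against 17.9 in WT. Gm15658 was also highest in MA9, at 8.04, 11.5 and 7.53 CPM, against 0.698 in WT, but its BN1 and ME libraries overlapped.

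The nearest tested genes on either side of the 67 genes numbered 128. Of these, 71 (55.5%) were called higher in BN1 than in WT, 65 (50.8%) in MA9 and 65 (50.8%) in ME, against the 38.4%, 39.3% and 39% of all tested genes given above and 48.8%, 49% and 49.6% of the 9442. Called lower were 38 (29.7%), 40 (31.25%) and 32 (25%), against 40.8%, 40.8% and 40.2% of all tested genes. The flanking genes were higher by at least 8 times in 8, 9 and 10 cases (6.25%, 7.03% and 7.81%), against 3.17%, 3.79% and 3.5% of all tested genes. Most of those in BN1 were low there, such as Arhgap40 (0.560 CPM), Zfp36l3 (0.388), Prom2 (0.825) and 4921507G05Rik (0.869), while Zkscan2 was at 20.5 CPM. Zfp36l3 lies 723 bp from Xlr and 4921507G05Rik 66 bp from Mok. Whether reads were shared with the genes beside them was not tested. Beside Sgip1, Pde4b, 134026 bp away, was at 3.96, 18.3 and 16 CPM in BN1, MA9 and ME, against 42.6 in WT, and was called lower in each. BB031773, 26679 bp away on the other side and opposite Tctex1d1, was low but called higher in each. It was at 2.06, 0.888 and 1.41 CPM, against 0 in WT.

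Promoter composition was then set beside expression, since vertebrate promoters rich in CpG dinucleotides tend to belong to widely used genes and promoters poor in CpG to tissue-restricted ones. RefSeq windows (GRCm38.p6) from 250 bases before to 50 after the start were found for 49 of the 67 genes, 64 windows in all. The ratio of observed to expected CpG had a median of 0.396 in these windows, 0.784 in the 9672 windows of genes that reached 5 CPM in every leukemia and 0.384 in all 32851 windows. It reached 0.6 in 34.4% of the windows of the set, in 73.9% of those of the expressed genes and in 35.8% of all. With protein-coding genes alone the shares were 41.7% and 74.3%. Among the windows shown at the opening the ratio was 0.922 for Cacna1b, 0.524 for Sgip1, 0.246 for Tfec and 0.202 for Dio2. No test was made of this difference, and the windows of a gene are not independent.

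**Figure D5:**
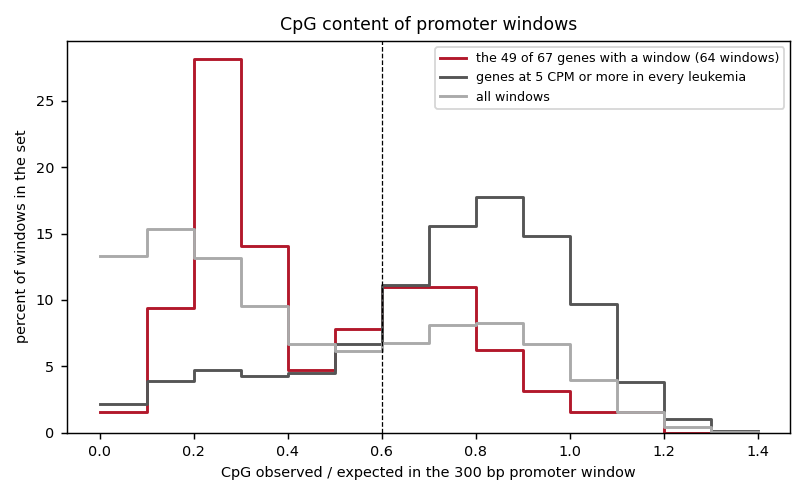
Share of promoter windows (y axis, percent of the windows of a set) by the ratio of observed to expected CpG (x axis) for 64 windows of the set, 9672 windows of genes that reached 5 CPM in every leukemia and 32851 windows of all genes. The dashed line marks 0.6. That ratio is reached by 34.4% of the windows of the set and by 73.9% of those of the expressed genes.

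A search for 14 short motifs on both strands of the 64 windows was made without a test. The ETS core GGAAGT was found in 20 windows (31.3%), against 30.9% of the windows of expressed genes and 23.8% of all. It overlaps the PU.1 motif GAGGAAGT, which was in 4 windows (6.25%, against 3.47% and 3.20%). A cyclic AMP response element, TGACGTCA, was in 3 windows (4.69%, against 3.33% and 1.79%), those of Clstn3, Dio2 and Nectin2. The combined HOX and PBX motif TGATTNAT was in none, against 1.0% and 3.22%, and the MEIS motif TGACAG was in 13 (20.3%, against 16.7% and 19.2%). The RUNX motif TGTGGT was in 6 windows (9.38%, against 12.5% and 16.8%). These matches describe letters in the windows and are not evidence of binding.

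Genes of the myeloid progenitor were then set beside the 67 genes. A list of 27 genes of neutrophil and monocyte progenitors, which includes Mgl2 and 6 of the 8 genes left out by name, had 18 members higher and 8 lower in BN1 than in WT, 19 and 6 in MA9, and 18 and 7 in ME. Median log2 fold changes of this list were 1.75, 1.40 and 1.30, against -0.01 for all tested genes in each leukemia. Without Mgl2 and those 6 genes, an alternative chosen after seeing the data, 20 genes were left, of which 11, 12 and 11 were higher and 8, 6 and 7 lower, with medians of 0.18, 0.71 and 0.25. Elane, the neutrophil elastase of primary granules, was at 5267 ± 172, 3856 ± 111 and 4340 ± 95.3 CPM in BN1, MA9 and ME, against 206 ± 5.86 in WT. In bulk samples, fewer cells of a type and less RNA per cell cannot be told apart, so a gene of the progenitor and a gene newly expressed per cell look alike here, and the part of cell composition in the values of the 67 genes was not tested.

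None of the other lists held a gene of the set. Among 19 tested genes of protein folding in the endoplasmic reticulum, 18 were higher in BN1 than in WT, 17 in MA9 and 18 in ME. Stem and early progenitor genes (20 tested) had 4, 9 and 7 higher and 15, 11 and 13 lower in BN1, MA9 and ME. Monocyte genes (16) had 8, 3 and 4 higher and 8, 13 and 12 lower, mature neutrophil genes (20) had 1, 0 and 1 higher and 19, 20 and 19 lower, and cell cycle genes (26) had 2, 10 and 10 higher and 24, 12 and 13 lower. Of 25 listed genes of the male germ line, the usual site of NUTM1, 12 passed the filter on low counts and were tested. Of these, 8, 8 and 5 were higher and 4, 4 and 6 lower in BN1, MA9 and ME. Some passed only through a leukemia where they were high, such as Tdrd9 (60.4 CPM in BN1, 0 in WT) and Tex14 (25.9 CPM in MA9, 0.372 in WT). Nothing is therefore read from the germ-line counts. Of 11 listed oncofetal genes, 6 were tested, with 3, 2 and 3 higher and 3, 2 and 2 lower. Igf2bp3, which met the limits but was left out by name, is on the oncofetal list, so its direction was fixed by the rule. All these calls are edgeR calls at an adjusted p under 0.05. By such calls 38.4%, 39.3% and 39% of all tested genes were higher in BN1, MA9 and ME, and 40.8%, 40.8% and 40.2% were lower.

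Markers of the other cells of marrow were lower in the leukemias. All tested markers of red cells (10), platelets (8), B cells (10), T cells (9), NK cells (7) and eosinophils, basophils and mast cells (9) were called lower than in WT in BN1, MA9 and ME. Dendritic cell markers (8 tested) were lower in 8, 7 and 8 cases, Mgl2 not being on that list. In BN1 their summed level was 66.9 to 70.2 CPM, in MA9 152 to 162 and in ME 63.1 to 72.8, against 406 to 426 in WT. Bst2, which other cells also express, made up 66.2, 40.2 and 50.3 CPM of it, against 85.0 in WT, and Flt3, also a gene of early progenitors, 0.110, 111 and 18.2 CPM, against 56.6 in WT. Siglech, Ccr9, Clec9a, Cd209a and Ly6d were each under 1 CPM in every leukemia. The summed level of red cell markers was at most 20.1 CPM in any leukemia library, against 19298 to 23477 in WT, and Car1 was at 0 in all 3 leukemias.

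Of 6 tested stromal and endothelial markers, 1, 2 and 0 were called higher and 5, 4 and 5 lower in BN1, MA9 and ME. Summed over the list they were at 121 to 129 CPM in BN1, 192 to 199 (MA9) and 61.7 to 67.2 (ME), against 124 to 130.5 in WT. Most of this sum came from Pecam1, which leukocytes also express, at 91.7, 148 and 46.2 CPM, against 69.9 in WT, and from the lipase gene Lpl, at 30.5, 43.3 and 17.2 CPM, against 43.4 in WT. The endothelial cadherin gene Cdh5 was at 0.354, 0.123 and 0.0973 CPM, against 8.12 in WT, and the endothelial receptor gene Kdr was at 0 in BN1 and ME and at 0.0170 CPM in MA9, against 1.06 in WT. The stromal gene Cxcl12 was at 0.320, 3.35 and 0.933 CPM, against 0.779 in WT. Rhoj, Nid2 and Ccm2l are known from endothelium or its basement membrane, and which cells of the libraries expressed them was not tested.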

How the data were processed

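Per the submitters' processing notes, the authors aligned reads to mm10 with HISAT2, counted them with featureCounts and tested them with DESeq2. No source used here gives versions, annotation release, strand setting or the treatment of multiply matching reads. RNA, per the labels' protocols, was purified on RNeasy columns and made into TruSeq stranded libraries. The deposited table holds unnormalised gene counts for 35976 symbols in 12 libraries, 10859 without any count.

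Levels are CPM by library total, as mean ± SD (n = 3). RPKM used exon lengths from GENCODE. Symbols were matched to RefSeq (GRCm38.p6), 32501 directly and 1005 by synonym, among the latter Selm. One edgeR quasi-likelihood model (robust, TMM factors 0.928 to 1.051, filterByExpr) was fitted to 15334 genes in all 12 libraries, with a group mean and no covariate, a biological coefficient of variation of 5.87% and Benjamini-Hochberg calls under 0.05. It was tested on simulated data beforehand. The members, gene lists, role groups and motifs were chosen with earlier results of these data known. Genes named individually were the 12 most abundant, the 10 with the largest lowest fold, the 5 most and 5 least even, the 3 on either side of each limit and up to 4 called genes per direction and comparison (Gm and Rik symbols aside), and the remaining members were added to describe every role group. Those additions, the neighbours and the family members in the closing section were chosen after their values were seen.

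Replicate numbers did not pair the libraries (correlations of deviations -0.0802 to 0.0620, 0 of 18 over 0.1), so no block was used. No replicate pair agreed within sampling noise. Counting intervals are exact at 95%. The floor is 3 counts and replaced the WT level only where WT had no count, so genes with a few WT counts kept their own level. Models ran in edgeR 4.0.16 with DESeq2 1.42.0 and limma 3.58.1 as alternatives (R 4.3.3), and tables and figures in pandas 2.3.3, matplotlib 3.10.9 and numpy 2.4.6 (Python 3.11.15).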

Additional observations from a re-analysis of the deposited data

How the results depend on the processing

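The size of the set followed the limits of the rule. It was 133 genes at a minimum of 4 times WT and 39 at 16 times, and 42 with a mean of at least 10 CPM, against 67 as reported. Scaling by TMM gave 60 and by DESeq2 size factors 56, all among the 67, and the rule held in every library of every group for 53. Leaving out each library in turn gave 64 to 68 genes, 62 of the 67 remaining without WT replicate 1. The counts of genes called between leukemias moved little: over the libraries left out they were 46 to 51 for BN1 against MA9, 51 to 54 for BN1 against ME, 45 to 48 for MA9 against ME and 48 to 50 for BN1 against the mean of both. Over all genes, calls against WT were 11940 to 12522 (BN1), 12091 to 12626 (MA9) and 11915 to 12431 (ME). Under DESeq2, limma-voom, other scaling and other filters, the counts between leukemias stayed between 46 and 54, the largest shift being to 52 for BN1 against the mean of both under upper-quartile scaling, against 48 as reported. The 32 gene values between leukemias kept direction and call under all 19 alternatives, with an adjusted p of at most 2.03e-07 across edgeR, DESeq2 and limma. With the replicate number as a block, 48, 53, 47 and 48 genes were called in the 4 comparisons, and 12042, 12162 and 12014 against WT; the block rests on a shared number only. Depth limits the folds of genes with few WT counts, 4 genes having 1 to 3 and 1 having none, so their order among the largest folds is not resolved.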

Other observations

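The families and receptors of several of the genes were looked up after the values were seen, and are given as levels without a test, as mean ± SD (n = 3 libraries each). Of the ErbB receptors bound by neuregulins, Erbb3, which binds ligand but has little kinase activity of its own, was at 38.2 ± 1.90, 14.1 ± 0.0219 and 32.7 ± 2.59 CPM in BN1, MA9 and ME, against 4.05 ± 0.258 in WT. Erbb2 was at most at 0.104 CPM in any group. Erbb4, the receptor of Nrg4, had no counts in BN1 and MA9 and 2 in ME, against none in WT. Egfr had 0, 1 and 1 counts in BN1, MA9 and ME, against 88 in WT. Nrg1 was also present, at 36.3 ± 1.46, 21.1 ± 0.178 and 41.6 ± 1.44 CPM, against 8.37 ± 1.45 in WT, and Nrg3 had at most 1 count in a group.

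Relatives of other genes ranged from absent to abundant. Lgr5, a close relative of Lgr6, had no counts in any leukemia and was at 8.10 ± 0.853 CPM in WT, while Lgr4 was at 8.28 ± 0.751, 6.04 ± 0.218 and 16.8 ± 1.25 CPM in BN1, MA9 and ME, against 2.83 ± 0.660 in WT. The signal-transducing receptor of interleukin 22, Il22ra1, had 1, 1 and 3 counts in BN1, MA9 and ME, against 11 in WT, and Il22 itself had none. The other chain of that receptor, Il10rb, was at 56.3 ± 0.577, 105 ± 2.73 and 118 ± 1.53 CPM, against 67.5 ± 2.82 in WT. Tln1, the relative of Tln2, was at 1562 ± 97.1, 1409 ± 108 and 1235 ± 135 CPM, against 1477 ± 47.6 in WT, and Fcho1, a relative of Sgip1, at 92.9 ± 6.76, 184 ± 14.1 and 203 ± 12.6 CPM, against 164 ± 9.37 in WT. Among the relatives of Clstn3 and Gstm2, Clstn1 was at 16.9 ± 1.38, 26.1 ± 1.86 and 28.1 ± 3.01 CPM, against 12 ± 0.585 in WT, and Gstm4 at 45.9 ± 0.793, 38.9 ± 0.799 and 43.1 ± 0.581 CPM, against 6.14 ± 0.923 in WT. Gstm5, of the same family as Gstm2, was not raised, at 0.0291 ± 0.0253, 4.09 ± 0.362 and 8.26 ± 0.588 CPM, against 8.57 ± 1.93 in WT. Slc32a1 was high without the enzymes that make GABA, since Gad1 had 0, 0 and 1 counts and Gad2 had 0, 0 and 4 in BN1, MA9 and ME, against 45 and 0 in WT. The other deiodinase genes Dio1 and Dio3 had no counts in the leukemias. Among calcium channel subunits that pair with the product of Cacna1b, Cacna2d2 was at 1.79 ± 0.194, 10.4 ± 1.08 and 0.770 ± 0.116 CPM, against 0.979 ± 0.474 in WT, and Cacnb1 at 5.43 ± 0.0380, 8.63 ± 1.11 and 0.243 ± 0.116 CPM, against 5.83 ± 0.578 in WT.

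Within the MiT-TFE family, Tfec alone met the rule. Mitf was at 15.2 ± 0.535, 8.62 ± 0.481 and 8.76 ± 1.03 CPM in BN1, MA9 and ME, against 7.57 ± 0.867 in WT, and Tfeb was below WT in every leukemia, at 34.3 ± 2.04, 25.3 ± 0.954 and 24.6 ± 3.09 CPM, against 83.2 ± 1.55. Tfe3 was at 86.2 ± 4.71, 35.6 ± 2.73 and 38.5 ± 3.53 CPM, against 73.1 ± 2.24 in WT. Gstm1, just outside the rule, was at 511 ± 15.3, 494 ± 10.8 and 642 ± 31.4 CPM, against 64.7 ± 2.63 in WT. Clec10a, the paralogue of Mgl2, was at 17.9 ± 0.940, 6.58 ± 0.380 and 8.78 ± 2.25 CPM, against 25 ± 2.56 in WT, below WT in every leukemia, where Mgl2 was above it. The estrogen receptor gene Esr1, whose product works with that of Greb1, was at 22 ± 1.51, 17.0 ± 1.37 and 12.9 ± 1.36 CPM, against 5.23 ± 0.909 in WT, while Esr2 had no counts in the leukemias.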
